A study of Homo sapiens with 16 samples.

Results

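The FASTK family is a set of 6 related genes, FASTK, FASTKD1, FASTKD2, FASTKD3, TBRG4 (the table's symbol for FASTKD4) and FASTKD5, whose proteins bind RNA in mitochondria. The members were taken by symbol, 6 of the 33121 entries in the count table, and the choice used no measured value. They were described in HAP1, an adherent, near-haploid human line derived from a chronic myeloid leukaemia line, in 16 libraries of polyadenylated RNA. The groups of 4 libraries were a line with a deletion of SLC30A10, the SLC30A10 control cells measured for it, a line with a deletion of another gene (the second knockout), and the second control set measured for that one. All cells were grown in the same serum-containing medium, and the labels name no drug or metal treatment for any group. Each deletion carries 1 cell line identifier and both control sets share another. The labels do not say whether replicates were separate cultures or how many clones each deletion rests on, so p-values measure only the spread between these libraries.

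Mitochondrial DNA is transcribed as long precursors that are cut into rRNAs, tRNAs and mRNAs in foci called mitochondrial RNA granules. FASTK family proteins, which end in an RNA-binding RAP domain, are among the proteins that act on these transcripts, each on its own set. FASTKD2 binds 16S rRNA and is needed to build the large subunit of the mitochondrial ribosome, and inherited loss of it causes a mitochondrial encephalomyopathy. FASTKD5 is needed to process precursors at junctions that no tRNA marks. FASTK protects ND6 mRNA, TBRG4 stabilises several other mitochondrial mRNAs, and FASTKD1 and FASTKD3 have been tied to the levels of particular mitochondrial mRNAs. SLC30A10 is a manganese exporter.

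Library totals ran from 16058856 to 16648151 counts, and 3 counts corresponded to 0.181 to 0.187 CPM, that is, reads counted per 1000000 after scaling of each library. The SLC30A10 transcript had 3 to 11 counts in the libraries labelled as its knockout and 6 to 9 in those of its control, so it does not check that label. HAP1 cells grow attached although their origin is haematopoietic. Of 7 haematopoietic markers, 5 (PTPRC, SPN and GATA1 among them) exceeded 3 counts in no library. Marker levels moved with the groups. The summed mesenchymal markers (4 genes, VIM among them) lay at 755 to 798 CPM in the SLC30A10 control, 427 to 439 in the SLC30A10 knockout, 504 to 653 in the second control set and 594 to 784 in the second knockout. The summed epithelial markers (4 genes) lay at 47.8 to 55.5, 56.7 to 64.1, 46.6 to 51.5 and 37.0 to 40.4 CPM in the same order, and the summed haematopoietic markers at 6.28 to 11.1, 13.7 to 16.5, 11.7 to 14.1 and 7.63 to 9.10 CPM. Each sum mostly follows 1 gene, VIM, KRT18 or KIT, and not its whole list. FN1 also moved with the mesenchymal sum in the SLC30A10 knockout, with a log2 fold change of -1.44 (edgeR adjusted p 2.60e-12). COL1A1 at -0.14 did not pass there (edgeR adjusted p 0.156). KRT8 moved with the epithelial sum, at 0.36 in the SLC30A10 knockout (edgeR adjusted p 0.00634) and -1.35 in the second (edgeR adjusted p 9.91e-09). KIT, the single haematopoietic marker that passed the filter, averaged 8.02, 14.5, 12.8 and 8.40 CPM by group. EPCAM, an epithelial marker, had estimates opposite in sign to its list's sum, a log2 fold change of -2.18 in the SLC30A10 knockout (edgeR adjusted p 9.43e-06) and 0.41 in the second (edgeR adjusted p 0.428). Their part in the results below was not tested.

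FASTKD2 is the member on which the family's result turns, and its start region is shown because the transcript was almost absent from 1 group. The gene lies on the plus strand at chr2:206765606-206796189. The stretch from chr2:206765356-206765605 is the 250 bases before its start. FASTK is shown for contrast, as a member whose RNA differed little between groups. It lies on the minus strand at chr7:151076624-151080809, and its 250 bases are chr7:151080810-151081059, read on that strand. Both are RefSeq sequences of GRCh38.p14, 5′ to 3′, and the capitals mark each CpG, the dinucleotide that DNA methylation targets in human cells.
FASTKD2: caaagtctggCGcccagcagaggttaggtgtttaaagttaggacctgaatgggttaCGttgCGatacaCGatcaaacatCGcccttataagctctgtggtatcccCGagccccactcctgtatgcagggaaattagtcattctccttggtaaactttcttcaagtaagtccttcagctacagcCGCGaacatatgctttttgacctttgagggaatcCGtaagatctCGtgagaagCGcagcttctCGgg
FASTK: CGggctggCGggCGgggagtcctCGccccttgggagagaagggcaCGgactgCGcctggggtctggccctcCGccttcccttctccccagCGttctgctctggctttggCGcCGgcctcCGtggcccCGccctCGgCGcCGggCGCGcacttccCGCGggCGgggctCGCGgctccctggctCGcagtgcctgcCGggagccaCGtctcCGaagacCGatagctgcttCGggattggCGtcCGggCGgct
The FASTKD2 stretch holds 12 CpG and the FASTK stretch 31. Among 35116 RefSeq promoters of the same length the median was 11, and 48.5% held at least as many CpG as FASTKD2, against 10.9% for FASTK. The stretches of FASTKD1, FASTKD3 and TBRG4 held 13, 27 and 27. The counts describe sequence only, since the data used here hold no measure of methylation.

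In the SLC30A10 knockout FASTKD2 RNA was nearly gone, FASTKD5 and FASTKD1 fell by smaller amounts, and FASTK, FASTKD3 and TBRG4 did not pass the test. In the second knockout FASTKD2 alone passed, and it fell by 36.0%. Of the 6 members, all of which passed the filter on low counts, 3 fell and 0 rose in the SLC30A10 knockout at an adjusted p under 0.05 (edgeR quasi-likelihood test, Benjamini-Hochberg over 15569 genes), where 41.4% of all tested genes were called, 20.2% lower and 21.2% higher. In the second knockout 1 of 6 fell and 0 rose, where 13.7% of all genes were called, 7.03% lower and 6.67% higher. Libraries of knockout and control did not overlap for 3 members in the SLC30A10 experiment, against 38.3% of all tested genes, and for 1 member in the second, against 16.3%. The median log2 fold change of the members was -0.19 and -0.08, against 0.00 for all tested genes in both comparisons. With 6 members, both shares are near the background, and the number of calls is no result about the family.

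**Figure D1:**
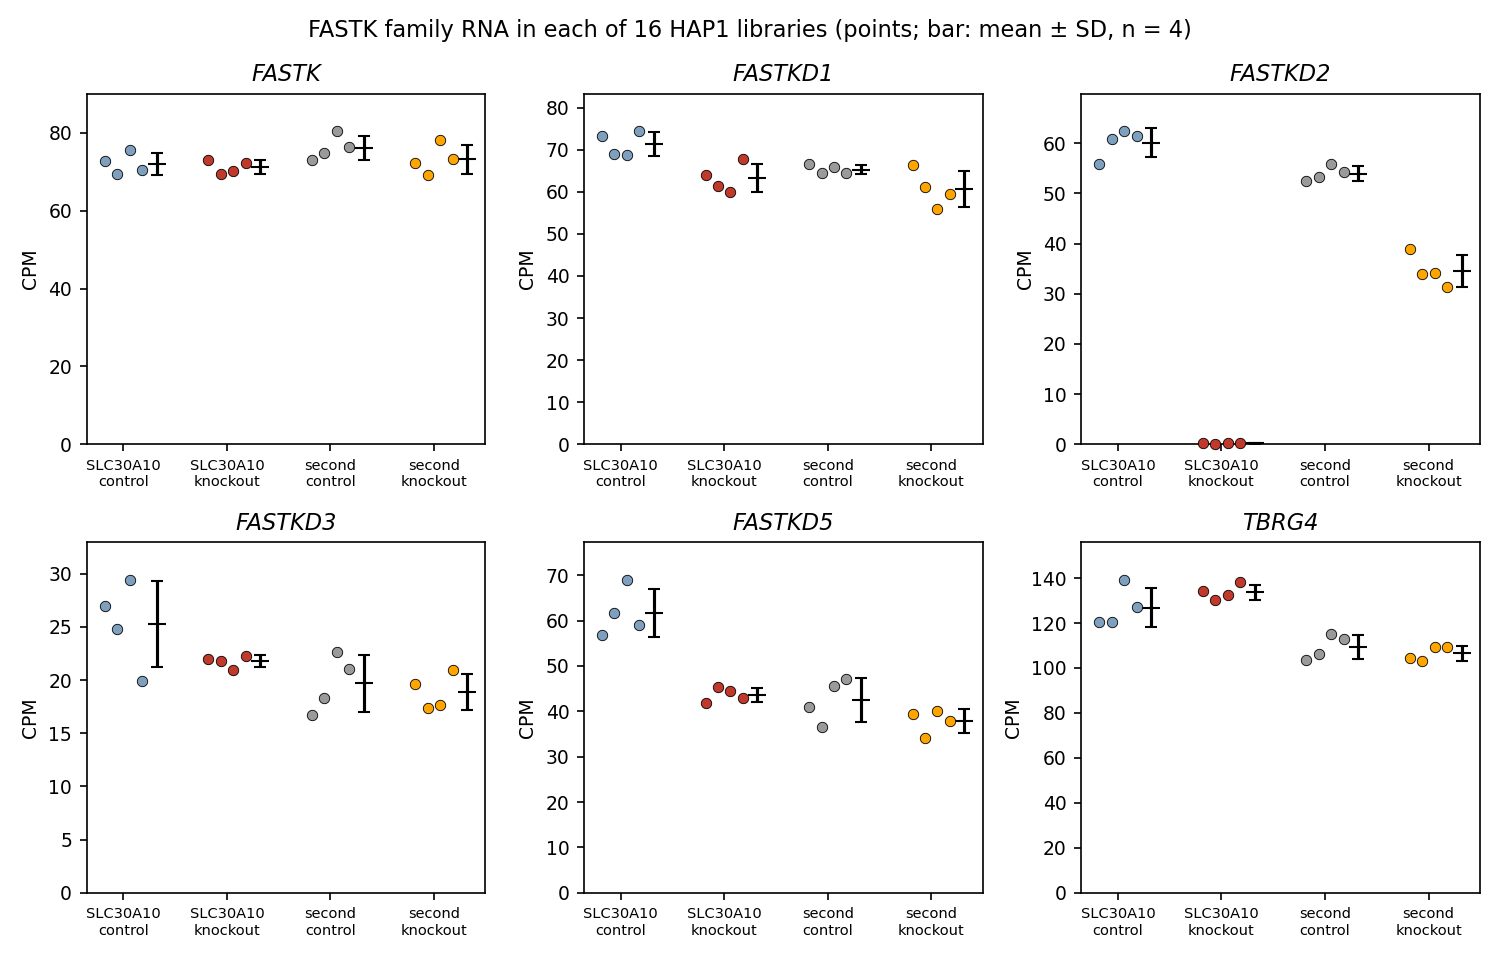
CPM of each FASTK family gene (1 panel per gene, y axes starting at 0) in the 4 groups; each point is a library and the bars give the mean ± SD of 4 libraries. The 4 SLC30A10 knockout libraries lie near 0 for FASTKD2, and the second knockout libraries lie at 31.3 to 38.8 CPM, below all 8 control libraries.

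FASTKD2 measured 55.9, 60.8, 62.4 and 61.5 CPM in the 4 SLC30A10 control libraries and 0.249, 0.0621, 0.184 and 0.187 CPM in the SLC30A10 knockout libraries. The latter values stand for 4, 1, 3 and 3 counts. No knockout library came near a control library. Summed over libraries, 11 counts against 3950 put the knockout at 0.283% of the control (95% exact binomial interval 0.141% to 0.508%, which covers counting error only), or 353-fold lower (197 to 707). The fitted log2 fold change was -8.40 ± 0.14 (SE, edgeR adjusted p 3.35e-25). In bulk RNA, a few cells that keep the transcript and a trace of it in every cell cannot be told apart.

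FASTKD2 in the second knockout measured 38.8, 34.0, 34.2 and 31.3 CPM, against 52.6, 53.2, 55.9 and 54.3 CPM in the second control set. The groups did not overlap, and all 4 knockout libraries were lower. The RNA fell by 36.0% (log2 fold change -0.64 ± 0.06, edgeR adjusted p 4.25e-09). The effects of the 2 knockouts on FASTKD2 differed by -7.76 ± 0.18 on the log2 scale (edgeR adjusted p 3.93e-22), and the SLC30A10 knockout lay 202.7-fold (113 to 407, counting error only) below the second knockout itself. For the difference of the knockout effects, 31.3% of all tested genes were called, and 2 of the 6 members, FASTKD2 and FASTKD5.

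**Figure D2:**
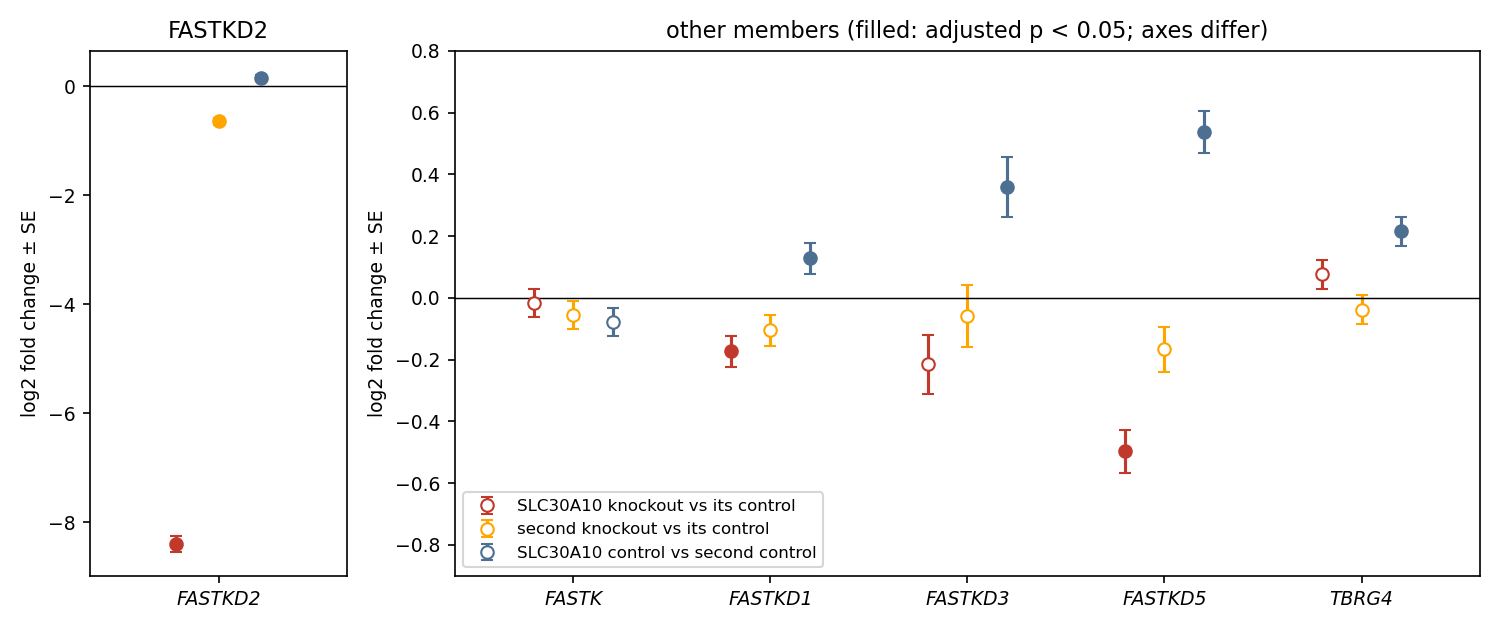
Log2 fold change ± SE of each member in the knockout comparisons and between the control sets, with FASTKD2 on an axis of its own because the range differs; filled points passed an adjusted p of 0.05. FASTKD2 lies at -8.40 in the SLC30A10 knockout and at -0.64 in the second knockout, while the other members lie between -0.50 and 0.54.

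The genes around FASTKD2 were examined to see whether the fall extended beyond it. The nearest gene is MDH1B, a malate dehydrogenase relative that lies head to head with FASTKD2 on the opposite strand. In the RefSeq annotation the start of MDH1B lies 278 bases before the FASTKD2 start. In GENCODE, where the models of the 2 genes overlap, 191 bases or 5.80% of the FASTKD2 exon length also lie in MDH1B exons, so reads there could be assigned to either gene or to neither. MDH1B was too low to pass the filter and was picked out after its values were seen. It had 2, 6, 9 and 3 counts in the SLC30A10 control libraries and 1, 0, 0 and 0 counts in the knockout. The groups did not overlap, as was so for 38.3% of all tested genes. The ratio of the scaled sums was 19.7-fold lower with a counting interval of 3.14 to 815. The two-sided exact permutation p was 0.0286, the smallest that 4 against 4 libraries allow. Since MDH1B was picked by its values, this p and the one below only describe its counts. The second control set had 2, 8, 3 and 8 counts and the second knockout 3, 2, 0 and 1, a ratio of 3.47-fold lower (1.36 to 10.5) with overlapping groups and an exact permutation p of 0.143.

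Beyond MDH1B, the closest tested genes changed little in the SLC30A10 knockout. ADAM23, 144479 bases away on the lower side, had a log2 fold change of 0.08 ± 0.05 (edgeR adjusted p 0.242), and KLF7, 277948 bases away on the higher side, 0.02 ± 0.07, which did not pass either. Of the 5 tested genes on each side, 2 of 10 were called (41.4% of all tested genes), EEF1B2 at 0.10 and CREB1 at -0.13, and the range was -0.13 to 0.22. Of the 10, 4 were called in the second knockout (13.7% of all tested genes), with GPR1 at 1.02 and ADAM23 at 0.23 higher and EEF1B2 at -0.24 and FZD5 at -0.34 lower. The near loss of transcript in the SLC30A10 knockout was therefore not shared by any of the 10 tested neighbours.

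**Figure D3:**
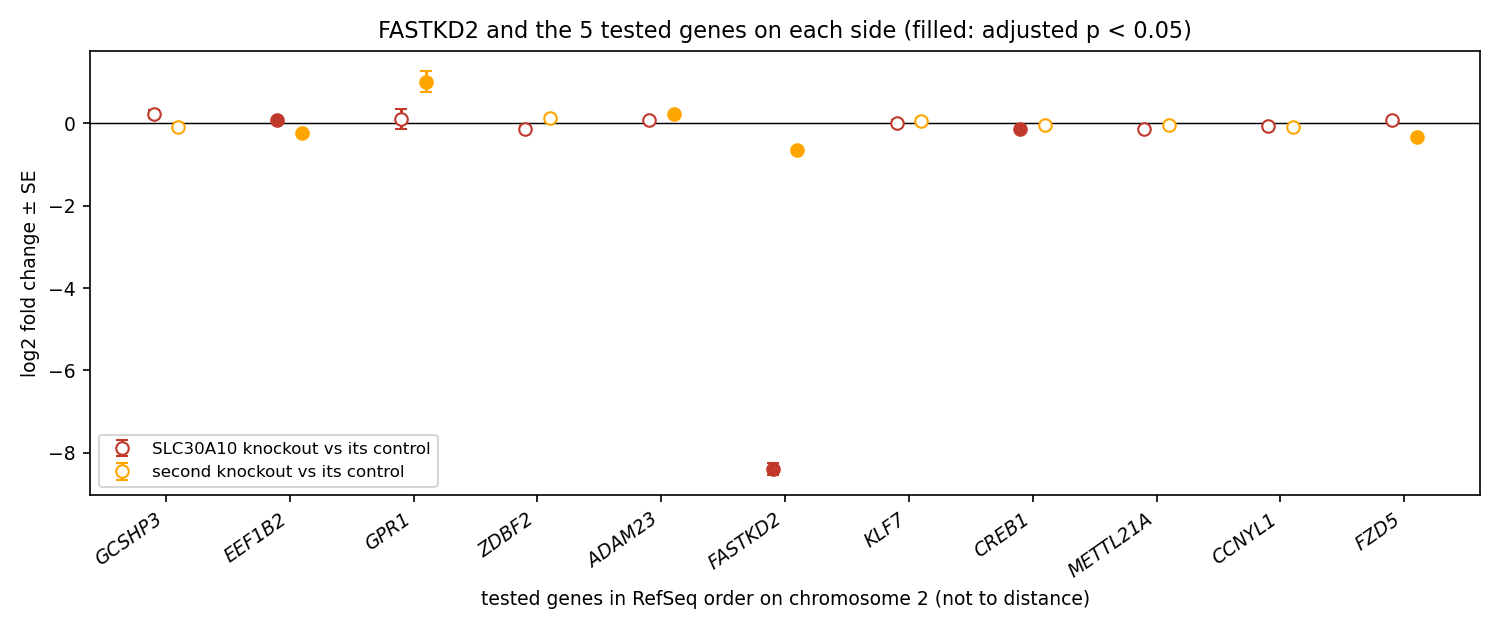
Log2 fold change ± SE of FASTKD2 and of the 5 tested genes on each side of it, in gene order (not to distance), in both knockout comparisons; filled points passed an adjusted p of 0.05. In the SLC30A10 knockout the 10 neighbours lie between -0.13 and 0.22, and FASTKD2 stands alone at -8.40.

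FASTKD5 (chr20:3146519-3159865, minus strand) measured 56.8, 61.7, 69.0 and 59.1 CPM in the control of the SLC30A10 experiment and 41.8, 45.3, 44.6 and 43.0 CPM in the knockout. The knockout libraries were all below the control libraries. The RNA fell by 29.2% (log2 fold change -0.50 ± 0.07, edgeR adjusted p 1.80e-06). In the second experiment it measured 40.9, 36.4, 45.6 and 47.0 CPM in the control set and 39.5, 34.2, 40.0 and 37.8 CPM in the knockout. These groups overlapped, with a log2 fold change of -0.17 ± 0.07 (edgeR adjusted p 0.134), which reached -0.23 and an adjusted p of 0.0294 without replicate 2 of the second control set. The effects differed by -0.33 ± 0.10 (edgeR adjusted p 0.0125).

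The FASTKD5 fall rests on which control it is set against. The SLC30A10 control libraries were the highest of the 4 groups at 61.7 ± 5.32 CPM (SD, n = 4), while the SLC30A10 knockout at 43.7 ± 1.57 CPM lay close to the second control set at 42.5 ± 4.82 CPM and above the second knockout at 37.8 ± 2.63 CPM. The SLC30A10 knockout comparison and the comparison of the control sets share the SLC30A10 control libraries. With both control sets pooled, the change in the SLC30A10 knockout was -0.25 with an edgeR adjusted p of 0.136, and that in the second knockout was -0.46 with an adjusted p of 0.0175. UBOX5, a ubiquitin ligase gene that starts at the same base and on the same strand, shares 132 exonic bases with FASTKD5 (4.59% of its length). UBOX5 moved the other way in the SLC30A10 knockout, with a log2 fold change of 0.44 ± 0.09 (edgeR adjusted p 0.000426) and levels of 10.0 ± 1.31 CPM in the control and 13.6 ± 0.903 CPM in the knockout, and how reads in the shared exon were divided is not given in the sources used here.

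FASTKD1 (chr2:169528508-169573865, minus strand) measured 73.3, 68.9, 68.8 and 74.4 CPM in the control of the SLC30A10 experiment and 63.9, 61.5, 60.0 and 67.8 CPM in the knockout. The groups lay close but did not overlap. The RNA fell by 11.3% (log2 fold change -0.17 ± 0.05, edgeR adjusted p 0.00742), a call that was lost with both control sets pooled, at -0.11 and an adjusted p of 0.120. In the second experiment FASTKD1 measured 66.5, 64.4, 65.9 and 64.4 CPM in the control set and 66.3, 61.2, 55.9 and 59.5 CPM in the knockout. Replicate 1 of the second knockout lay among its controls and the other 3 lay below them, with a log2 fold change of -0.11 ± 0.05 (edgeR adjusted p 0.191, and 0.0315 at -0.17 with the control sets pooled). The effects of both knockouts differed by -0.07, with an interval of -0.22 to 0.08, so that FASTKD1 passing in 1 experiment and not in the other is no measured difference between them.

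FASTKD3 (chr5:7859159-7869031, minus strand) was the lowest member in the control libraries and the least even. It measured 26.9, 24.8, 29.5 and 19.9 CPM in the control of the SLC30A10 experiment and 22.0, 21.8, 21.0 and 22.3 CPM in the knockout. The control libraries spread around the narrow knockout values, since replicate 4 lay below all knockout libraries and the others above. The log2 fold change was -0.22 ± 0.10 (edgeR adjusted p 0.0734), and it passed at -0.32 and an adjusted p of 0.00444 without control replicate 4, at 0.0169 with no filter on low counts, and at 0.0496 in a fit of only the 8 libraries compared. The change was smaller, at -0.05 and an adjusted p of 0.792, with both control sets pooled, and at -0.13 and 0.284 without control replicate 3. In the second experiment the control set measured 16.7, 18.3, 22.7 and 21.1 CPM and the knockout 19.6, 17.4, 17.7 and 20.9 CPM, with a log2 fold change of -0.06 ± 0.10 (edgeR adjusted p 0.767). MTRR, which encodes methionine synthase reductase, spans FASTKD3 on the opposite strand with no shared exon. MTRR had a log2 fold change of -0.01 in the SLC30A10 knockout (edgeR adjusted p 0.871) and 0.16 ± 0.05 in the second (edgeR adjusted p 0.0390).

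FASTK was level across the groups. It measured 72.8, 69.4, 75.7 and 70.4 CPM in the control of the SLC30A10 experiment and 73.1, 69.4, 70.2 and 72.4 CPM in the knockout, a log2 fold change of -0.02 with an interval of -0.11 to 0.08 (edgeR adjusted p 0.801). In the second control set it measured 73.0, 74.8, 80.4 and 76.2 CPM and in the second knockout 72.3, 69.1, 78.1 and 73.3 CPM, a log2 fold change of -0.06 with an interval of -0.15 to 0.04 (edgeR adjusted p 0.470). All groups overlapped, and no group stood apart.

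TBRG4 (chr7:45100100-45111697, minus strand), which hosts the small nucleolar RNAs SNORA5A, SNORA5B and SNORA5C in its introns, was the most abundant member. It measured 120.5, 120.6, 139 and 127 CPM in the control of the SLC30A10 experiment and 134, 130.3, 132 and 138 CPM in the knockout. Control replicate 3 was the highest of these 8 libraries. The log2 fold change was 0.08, with an interval of -0.02 to 0.17 (edgeR adjusted p 0.197), and it passed at 0.12 and an adjusted p of 0.0242 without control replicate 3, and at 0.18 and 0.0268 with both control sets pooled. In the second experiment TBRG4 measured 103, 106, 115 and 113 CPM in the control set and 104, 103, 109 and 109 CPM in the knockout, a log2 fold change of -0.04 ± 0.05 (edgeR adjusted p 0.665). TBRG4 had the only positive estimate among the members in the SLC30A10 knockout, and without control replicate 3 its effects in the 2 knockouts differed by 0.16 (edgeR adjusted p 0.0395).

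Levels between members can be compared only per length, so CPM was divided by the length of each gene's merged GENCODE exons, from 1878 bases for FASTK to 3296 for FASTKD2. In the SLC30A10 control the order was TBRG4 at 49.3 ± 3.44 CPM per kb (SD, n = 4), FASTK at 38.4 ± 1.49, FASTKD1 at 24.1 ± 0.984, FASTKD5 at 21.5 ± 1.85, FASTKD2 at 18.2 ± 0.889 and FASTKD3 at 10.5 ± 1.69. FASTKD1 and FASTKD5 overlapped between libraries, and the other neighbours in this order did not. In the second control set FASTKD2 at 16.4 ± 0.437 CPM per kb and FASTKD5 at 14.8 ± 1.68 exchanged places. The ranges of that pair overlapped, as did those of TBRG4 at 42.4 ± 2.13 and FASTK at 40.5 ± 1.69. Within every library of that set, however, FASTKD2 lay above FASTKD5 and TBRG4 above FASTK. In the second knockout FASTKD2 at 10.5 ± 0.951 CPM per kb was again below FASTKD5 at 13.2 ± 0.915, and in the SLC30A10 knockout it was last at 0.0517 ± 0.0237, below FASTKD3 at 9.06 ± 0.236. The ranks within each group were the same when the longest transcript was used as the length.

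Added over the 6 members, the family came to 162 ± 7.32 CPM per kb in the SLC30A10 control, 135 ± 2.92 in the SLC30A10 knockout, 144 ± 6.58 in the second control set and 132 ± 3.76 in the second knockout (SD, n = 4). FASTKD2 made up 11.3% and 11.4% of that sum in the control sets, 7.93% in the second knockout and 0.0380% in the SLC30A10 knockout. TBRG4 and FASTK together led the sum in every group. No member's level in the SLC30A10 knockout was above its control by a difference that passed the test.

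**Figure D4:**
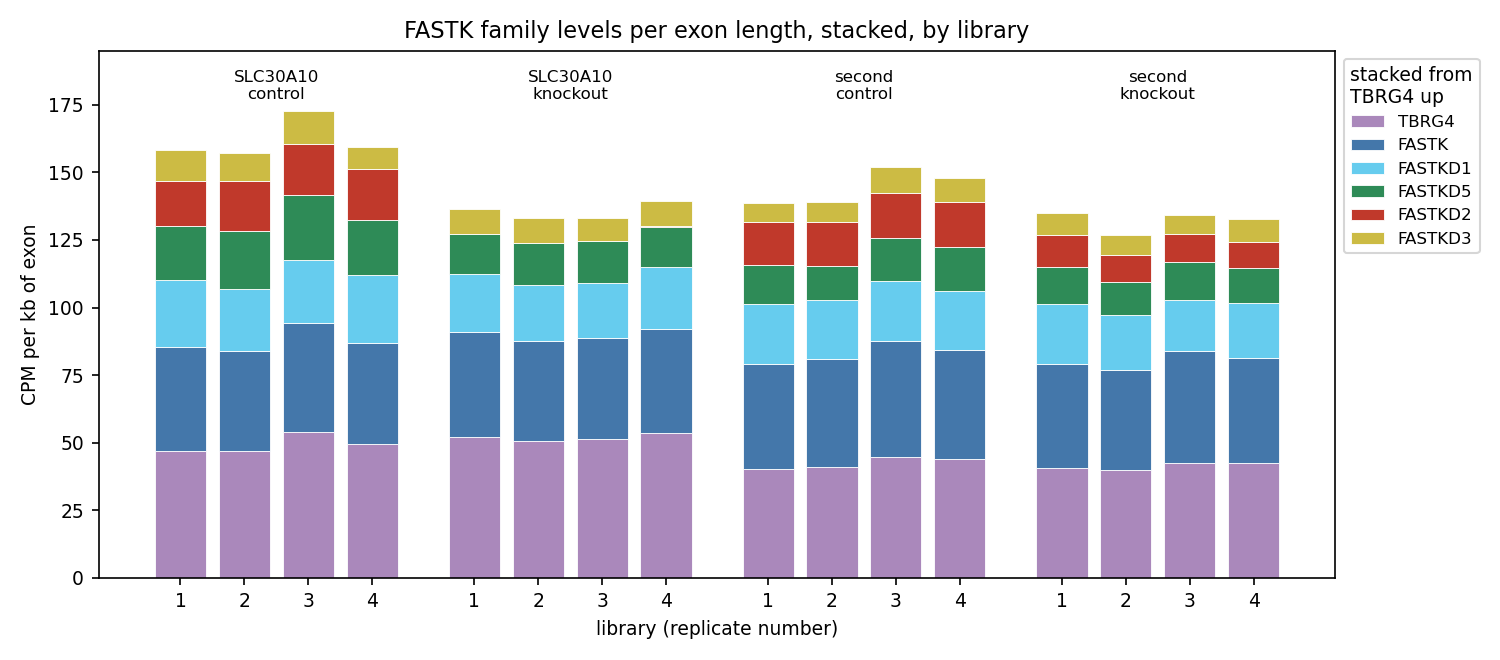
CPM per kb of merged exon for the 6 members, stacked for each of the 16 libraries in their 4 groups. The FASTKD2 layer is absent to the eye in the SLC30A10 knockout libraries, whose stacks reach 133 to 139 CPM per kb against 157 to 173 in their control.

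The control sets are 1 line by their identifier, yet they differed for 5 of the 6 members. All 5 were higher in the SLC30A10 control, in a comparison where 39.3% of all tested genes were called, 18.5% higher and 20.8% lower. FASTKD5 differed the most, by a log2 value of 0.54 ± 0.07 (edgeR adjusted p 1.55e-06), or 45.1%. FASTKD3 was 0.36 ± 0.10 higher (edgeR adjusted p 0.00443) and TBRG4 0.21 ± 0.05 (edgeR adjusted p 0.000682). FASTKD2 at 0.16 ± 0.06 (edgeR adjusted p 0.0318) and FASTKD1 at 0.13 ± 0.05 (edgeR adjusted p 0.0459) lay near the threshold. The FASTKD2 call was lost without replicate 2, 3 or 4 of the SLC30A10 control or replicate 1 or 2 of the second control set (adjusted p up to 0.0669), and the FASTKD1 call without replicate 1 or 4 of the former or 2 or 4 of the latter (up to 0.0928). FASTK at -0.08 did not pass (edgeR adjusted p 0.178). Libraries of the 2 sets did not overlap for 3 members, FASTKD1, FASTKD5 and TBRG4, and for 36.3% of all tested genes. For FASTK, FASTKD3, FASTKD5 and TBRG4 the estimate between the control sets was larger in size than the estimate in either knockout, though FASTK passed in none of these comparisons.

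The proteins that work beside the family were counted from lists of known granule components. FASTKD2 belongs to a module on 16S rRNA with RPUSD3, RPUSD4 and TRUB2, which are pseudouridine synthases, and NGRN and RCC1L. Of these 5 partners 0 were called in either knockout, where 41.4% and 13.7% of all tested genes were called. With 5 genes, that count is no result about the module. At an unadjusted p under 0.05, edgeR gave 0 in the SLC30A10 knockout and 1, NGRN, in the second. DESeq2 called 0 in each. The log2 fold changes of the 5 partners ran from -0.11 to 0.09 in the SLC30A10 knockout and from -0.12 to 0.11 in the second. The transcripts of the module's other proteins thus showed no change of the size seen for FASTKD2.

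Of 26 tested genes of other granule and RNA processing proteins, 6 were called in the SLC30A10 knockout, 3 higher and 3 lower. That is 23.1%, against 41.4% of all tested genes, and the median log2 fold change was -0.04. HSD17B10, a subunit of mitochondrial RNase P, rose by 0.28 ± 0.05 (edgeR adjusted p 0.000125), from 78.6 ± 6.83 to 95.2 ± 2.19 CPM (SD, n = 4). LRPPRC, which stabilises mitochondrial mRNAs, rose by 0.18 ± 0.04 (edgeR adjusted p 0.000186), from 396 ± 5.73 to 449 ± 15.3 CPM. REXO2, an exonuclease that degrades short RNA fragments, fell by 0.30 ± 0.05 (edgeR adjusted p 4.09e-05), from 45.6 ± 0.339 to 37.2 ± 1.31 CPM. MTRES1 (C6orf203 in the table), a mitochondrial RNA-binding protein, fell by 0.35 ± 0.08 (edgeR adjusted p 0.00135), and DHX30, a granule helicase, by 0.12 ± 0.04 (edgeR adjusted p 0.0111). PTCD3, a mitochondrial ribosome protein, was the other called gene, at 0.09. REXO2 and MTRES1 were also 0.26 and 0.28 higher in the SLC30A10 control than in the second control set, as FASTKD5 was, and both comparisons use the same SLC30A10 control libraries.

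In the second knockout 1 of the 26 was called, PTCD2, which rose by 0.19 ± 0.06 (edgeR adjusted p 0.0236) and was not called without replicate 2 or without replicate 4 of the second control set. Of 5 genes of mitochondrial transcription (POLRMT, TFAM, TFB2M, TEFM and MTERF1), 0 were called in either knockout by edgeR or DESeq2, and 0 at an unadjusted p under 0.05. Over the 3 lists together, 6 of 36 were called in the SLC30A10 knockout, 1 in the second knockout and 20 between the control sets, of which 18 were higher in the SLC30A10 control. Without replicate 3 of the SLC30A10 control, 13 were called between the control sets, 12 of them higher. The shares called were 16.7% and 2.78% in the knockouts, against 41.4% and 13.7% of all tested genes, and 55.6% between the control sets, against 39.3%.

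**Figure D5:**
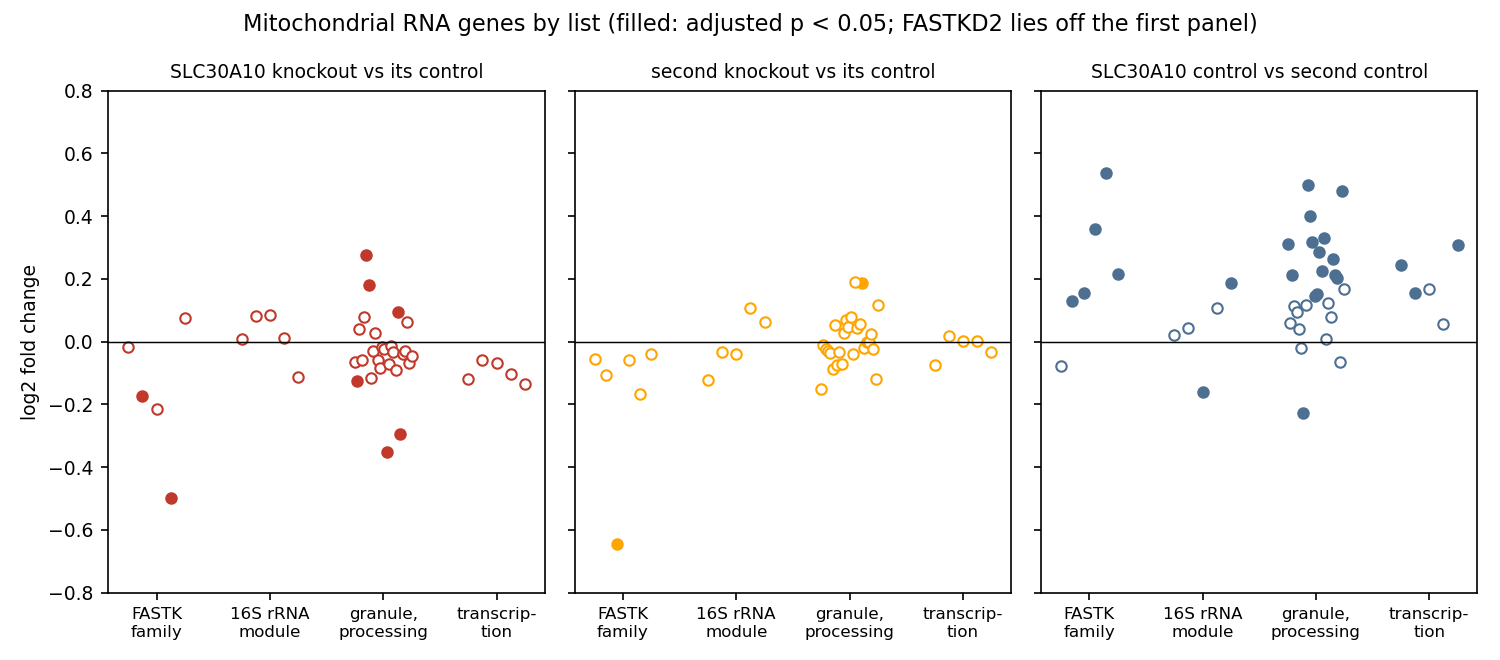
Log2 fold change of each tested gene of the FASTK family, the 16S rRNA module partners, the other granule and RNA processing genes and the transcription genes, 1 panel per comparison; filled points passed an adjusted p of 0.05. FASTKD2 in the SLC30A10 knockout lies off the first panel, and between the control sets most called points lie above 0.

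The RNAs on which the family acts are encoded in mitochondrial DNA, and of 15 such genes (13 mRNAs and 2 rRNAs) the 2 rRNAs were measured here. The 13 mRNAs had no entry in the count table under the symbols tried, so they could not be analysed. RNR2, the 16S rRNA that FASTKD2 binds, measured 128 ± 7.78 CPM in the control of the SLC30A10 experiment and 133 ± 17.9 CPM in its knockout (SD, n = 4), with a log2 fold change of 0.06 ± 0.11 (edgeR adjusted p 0.673). In the second experiment it measured 152 ± 27.9 and 163 ± 26.9 CPM, with 0.10 ± 0.10 (edgeR adjusted p 0.606). RNR1, the 12S rRNA, had log2 fold changes of 0.35 ± 0.18 (edgeR adjusted p 0.123) and 0.48 ± 0.18 (edgeR adjusted p 0.0878). Neither passed the test, and the libraries were selected for poly-A tails, so these values describe the captured part of each rRNA.

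The genes whose log2 CPM followed each member most closely over the 16 libraries were taken as a description, by Pearson correlation among 11673 genes. For FASTKD2 they were H2AFJ at 0.995, LAYN at 0.989 and NPR3 at 0.984. All 3 had their lowest mean in the SLC30A10 knockout, where H2AFJ averaged 0.0156 CPM, LAYN had 0 counts and NPR3 averaged 10.1 CPM, and this separation sets the coefficient. H2AFJ, a histone variant gene, also fell in the second knockout (log2 fold change -0.30 ± 0.09, edgeR adjusted p 0.0225), LAYN did not pass there at 0.06, and NPR3 rose by 0.29. For FASTKD5 they were SRSF2 at 0.970 and SYNGR2 at 0.964, and for TBRG4 SLC10A4 at 0.977, SLC38A5 at 0.971 and LRRC59 at 0.971. FASTKD3 was closest to GTF2H1 at 0.944, CDK12 at 0.938 and DHX33 at 0.935, and FASTKD1 to LOC642852 at 0.886, HELQ at 0.883 and KITLG at 0.878. FASTK, the member that varied least between groups, had the lowest top values, TGFB1I1 at 0.819, ORMDL3 at 0.804 and NHP2 at 0.768. The 16 points are not independent, since libraries of a group share their cell line.

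Around the other members, the 5 tested genes on each side were counted in the same way. In the SLC30A10 knockout, where 41.4% of all tested genes were called, 7 of 10 were called around FASTK, 2 around FASTKD1, 7 around FASTKD3, 8 around FASTKD5 and 3 around TBRG4. FASTK itself was not called, while SLC4A2, 97 bases away, was lower (-0.28 ± 0.04, edgeR adjusted p 9.54e-06) and TMUB1 on the other side had -0.01. Beside FASTKD1, BBS5 was higher at 0.36 (edgeR adjusted p 0.00251) and PPIG had 0.10 (edgeR adjusted p 0.0882). For TBRG4, NACAD, 11131 bases away, was higher at 1.04 (edgeR adjusted p 6.53e-08). ADCY1, 462443 bases away on the other side, had -0.20 (edgeR adjusted p 0.0543). The nearest tested gene on the higher side of FASTKD3 was SNHG18, 1677169 bases away, at -0.46 (edgeR adjusted p 0.0471). In the second knockout SNHG18 had -2.56 (edgeR adjusted p 6.77e-09), and MTRR, the other neighbour of FASTKD3 called there, 0.16. On the higher side of FASTKD5, LZTS3, 2752 bases away, had 0.05 in the SLC30A10 knockout (edgeR adjusted p 0.696). The counts in the second knockout were 0, 0, 2, 1 and 3 of 10 in the same order, where 13.7% of all tested genes were called.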

How the data were processed

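Polyadenylated RNA of 16 HAP1 libraries, 4 per group, was sequenced as paired ends on a DNA nanoball platform, per the labels' protocols. Groups came from the labelled genotype and title. The deposited table holds whole-number counts per gene symbol, and the submitters' processing notes name HISAT2, featureCounts, DESeq2 and the builds hg38 and GRCh38, without versions or roles. The annotation and any use of strand in counting are not given in the sources used here. A second deposited table holds normalized signal, and its columns equal the counts times a constant within 5.26e-06 counts, and the size factors it implies served as an alternative added after seeing the data. In the count table, 0 rows named no gene and 28 symbols had been turned into dates.

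Counts were fitted with edgeR 4.0.16 in R 4.3.3 over all 16 libraries with a mean per group, TMM scaling and edgeR's expression filter (minimum count 10, minimum total 15), which kept 15569 genes. Quasi-likelihood tests compared each knockout with its own control set, the 2 effects with each other, and the 2 control sets. P-values were adjusted by Benjamini-Hochberg over all tested genes, with a threshold of 0.05. The SE of a log2 fold change is its size divided by the square root of F, and intervals are at 95%. The common biological coefficient of variation was 0.0497. Each library was counted as 1 sample. Replicate pairs differed by more than sampling noise (chi-square per degree of freedom 1.64 to 6.83), which does not show whether they were separate cultures. Simulated counts with known changes in the SLC30A10 comparison (15427 genes) gave back 95% of 1.5-fold and 100% of 2-fold changes, with 10 false calls. The changed genes, 100 at each fold, were drawn from those with higher mean counts, and all others were left unchanged. The rates therefore do not describe genes with low counts or data in which many genes change.

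Positions, neighbours (91.1% of tested genes placed) and promoters (5 of 6 members matched) came from RefSeq GRCh38.p14. Exon lengths and exon overlaps came from GENCODE v29, with merged exons as the length and the longest transcript as the alternative. The named genes are the 6 members, up to 5 list genes per knockout with the smallest adjusted p under 0.05, the nearest tested gene on each side of each member, and the 3 genes most correlated with each member (mean of at least 5 CPM). MDH1B and the other genes named around FASTKD2, PTCD3 and NGRN were chosen after their values were seen. The members and lists were chosen with earlier results of these data known. The gene deleted in the second knockout and 1 other gene that the rule names are not reported here. Alternatives were other scalings, DESeq2 1.42.0, other filters and thresholds, fits of fewer libraries, pooled controls, the replicate block and leaving out each library.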

Additional observations from a re-analysis of the deposited data

Results flagged for a closer look

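Members and list genes whose change differed between the 2 knockouts by the edgeR test of the difference itself were looked at again. FASTKD2 differed by a log2 value of -7.76 ± 0.18 (edgeR adjusted p 3.93e-22) and FASTKD5 by -0.33 ± 0.10 (edgeR adjusted p 0.0125). REXO2 differed by -0.29 ± 0.07 (edgeR adjusted p 0.00280) and MTRES1 by -0.31 ± 0.12 (edgeR adjusted p 0.0485). PTCD2 differed by -0.28 ± 0.08 (edgeR adjusted p 0.00798) and HSD17B10 by 0.36 ± 0.08 (edgeR adjusted p 0.000479). A negative value means that the change in the SLC30A10 knockout lay below the change in the second knockout. It does not compare their levels, since FASTKD5 averaged 43.7 CPM in the SLC30A10 knockout and 37.8 CPM in the second. PTCD2 was called only in the second knockout, where it rose by 0.19. Each effect is measured against its own control set, so a difference between control sets enters these values. Between the control sets FASTKD5, REXO2 and MTRES1 were 0.54, 0.26 and 0.28 higher in the SLC30A10 control, all past the threshold, while HSD17B10 at 0.04 and PTCD2 at 0.12 did not pass. For the 6 members, 0 of 24 sets of 4 libraries held a library that stood far from the rest, where chance gives about 1.2.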

How the results depend on the processing

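FASTKD2 kept its direction and its call in both knockouts under every alternative run, from -8.63 to -8.13 and from -0.72 to -0.60, except that its change in the second knockout is under the 2-fold limit. Median-of-ratios size factors and library totals moved the median of all genes by less than 0.03, and neither these, the deposited size factors nor DESeq2 turned a member's direction. Requiring a 2-fold change left 702 genes in the SLC30A10 knockout, 358 in the second, 858 for the difference and 218 between the control sets, with 1, 0, 1 and 0 family members and 0 of the other listed genes in all 4. An adjusted p under 0.01 left 1229 genes in the second knockout, 1 member for the difference, 3 members between the control sets, and 0 and 12 other listed genes in the second knockout and between the control sets. With no filter the second knockout had 0 other listed genes, and 4 members were called in the SLC30A10 knockout and 4 between the control sets. With pooled controls the second knockout had 3 members and 3 other listed genes. The SLC30A10 knockout then had 2 members, FASTKD2 lower and TBRG4 higher. Leaving out 1 library gave 1 to 2 members in the second knockout and 3 to 5 between the control sets, and for the other listed genes 0 to 1 in the second knockout, 3 to 7 for the difference (7 without SLC30A10 control replicate 3) and 13 to 23 between the control sets. Leaving out 1 library, the FASTK change in the SLC30A10 knockout ran from -0.039 to 0.0073, above 0 without SLC30A10 control replicate 3, and the FASTKD3 change in the second knockout from -0.13 to 0.020, above 0 without second control replicate 3. With pooled controls these were -0.06 and -0.25. The cause of these shifts was not tested.

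Same-numbered libraries showed little shared deviation (correlations of -0.103 to 0.116). Low correlations cannot exclude that same-numbered libraries were handled together, so whether the numbers pair the samples is not known. With the replicate block 6497, 2160, 4882 and 6181 genes, 3, 1, 2 and 5 members and 6, 2, 4 and 20 other listed genes were called, in the order above. Depth limits FASTKD2 in the SLC30A10 knockout and MDH1B throughout, where a library holds few counts.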
